A study of Ovis aries with 8 samples.

Results

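The apolipoprotein genes of the lamb liver were followed here in milk replacer restriction. They were chosen by name, as the rows of the deposited table whose gene symbol was 1 of 10 listed apolipoprotein symbols. Of these, 9 were present (APOA2, APOA4, APOA5, APOB, APOC3, APOD, APOE, APOH and APOM), among 27729 genes in all, and APOA1 was absent under that symbol. The gene that RefSeq lists as APOA1 under the same Entrez identifier is LOC101117785 in the deposited table. It is given beside the 9 and is not counted with them.

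RNA from the livers of 8 Assaf lambs, a dairy sheep breed, was sequenced before weaning, with 1 library per lamb. The 4 restricted lambs (RES 1 to RES 4) received 120 mL of milk replacer per kg, weighed 7.5 to 8.7 kg and were 33 to 36 days old at slaughter. The 4 lambs fed to appetite (ADL 1 to ADL 4) had an allowance of 192 mL per kg (labelled as 200 g of dry matter per L), weighed 10.4 to 12.45 kg and were also 33 to 36 days old. Sex was not given in the labels. Values are the authors' TPM, in which reads are divided by gene length and scaled to the same total in every lamb. A value after ± is the SD over the 4 lambs of a group.

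Apolipoproteins are the protein part of lipoprotein particles, which carry triglyceride and cholesterol through the blood. The liver secretes APOB on very low density lipoprotein and APOA1 and APOA2 on high density lipoprotein. Smaller exchangeable members move between particles and set how fast these are emptied of triglyceride or taken up again. In mammals the genes APOA1, APOC3, APOA4 and APOA5 lie side by side in a cluster.

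Livers carried hepatocyte transcripts at high levels, with all 12 listed hepatocyte markers detected and albumin at 28707 to 111613 TPM in RES and 31098 to 78469 TPM in ADL. Between 15134039 and 17879918 reads per lamb were assigned to genes. ADL 3 stood apart, with its 10 most abundant genes at 31.0% of all TPM, against 18.7 to 25.95% in the other 7 lambs, so differences are also given without it. ADL 3 and RES 4, and to a lesser degree ADL 4, had high acute phase transcripts. The 14 acute phase genes found summed to 15.7% of all TPM in RES 4 and 4.47 to 5.43% in the other RES lambs. They summed to 19.0% in ADL 3, 11.5% in ADL 4, 7.44% in ADL 2 and 4.69% in ADL 1. In bulk liver, fewer cells of a type and less RNA per cell cannot be told apart.

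The 9 genes differed in level by more than 3 orders of magnitude, from APOC3 to APOD. APOC3 averaged 8349 TPM over the 8 lambs and stood 14th among all genes. APOE (4886 TPM), APOA2 (4797 TPM) and APOH (4378 TPM) followed at ranks 25, 26 and 30. The order of these 3 was not stable, since APOE was above APOA2 in 4 of 8 lambs and APOA2 above APOH in 4 of 8. APOA5 (508 TPM) and APOB (448 TPM) also changed places between lambs, with APOA5 above in 5 of 8. APOM averaged 116 TPM, below APOB in 8 of 8 lambs, and APOD averaged 3.43 TPM, below APOM in 8 of 8. APOA4 had no fixed place. It averaged 578 TPM, but it was above APOA5 in 2 lambs, both ADL, and below it in the other 6.

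**Figure D1:**
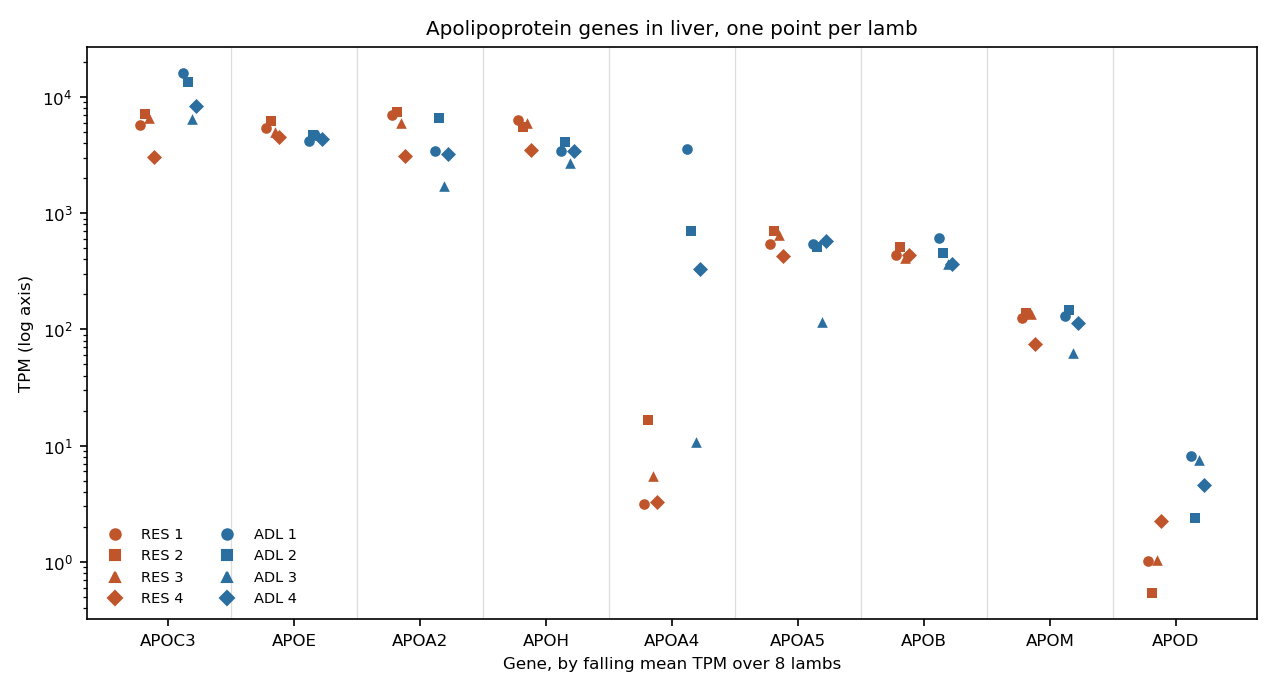
TPM of the 9 apolipoprotein genes on a log axis, 1 point per lamb, with RES lambs in orange at the left of each gene and ADL lambs in blue at the right. APOA4 spans 3.14 to 3556 TPM, whereas APOE spans 4141 to 6256 TPM.

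Summed over the 9 genes, apolipoprotein transcripts held 2.33 ± 0.559% of the TPM of RES livers and 2.48 ± 0.766% of that of ADL livers. The values were 2.56%, 2.77%, 2.47% and 1.51% in RES 1 to RES 4, and 3.20%, 3.05%, 1.61% and 2.07% in ADL 1 to ADL 4. The groups overlapped, and the lowest share in each group belonged to the lamb with the highest acute phase sum. Both are parts of the same TPM total, so a high acute phase sum lowers the share left to other genes. After median-of-ratios rescaling the lowest summed level was 16239 in RES 4 among RES lambs. Among ADL lambs it was then 19010 in ADL 4, with ADL 3 at 19272. As a share of reads, before division by gene length, the 9 genes held 1.34% in both groups (SD 0.221 in RES and 0.353 in ADL).

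Within this pool the shares of APOC3, APOH and APOA4 did not overlap between groups, which is given as a description with no test. The share of all genes that would do so was not computed. Shares of 1 pool are tied to each other, so a lower share of APOC3 raises those of the rest. By TPM itself all 3 genes overlapped, and the ratio to APOC3 separated the groups in 30.1% of all tested genes. APOC3, which restrains lipoprotein lipase and the uptake of triglyceride-rich remnants, held 22.4%, 25.9%, 26.6% and 20.2% of the TPM of the 9 genes in RES 1 to RES 4. It held 50.3%, 43.7%, 40.3% and 40.2% in ADL 1 to ADL 4. The groups did not overlap, and ADL 3 lay with the other ADL lambs. APOH, also known as beta-2-glycoprotein I, a plasma protein that binds phospholipids, held 19.9 to 24.95% in RES and 10.8 to 16.7% in ADL, again without overlap. APOA2 held 24.6 ± 3.10% in RES and 14.6 ± 5.17% in ADL, and APOE 23.5 ± 4.43% and 19.5 ± 7.13%, with overlap in both. APOA4 held 0.0123 to 0.0597% in RES and 0.0669 to 11.1% in ADL, a narrow gap set by RES 2 and ADL 3.

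**Figure D2:**
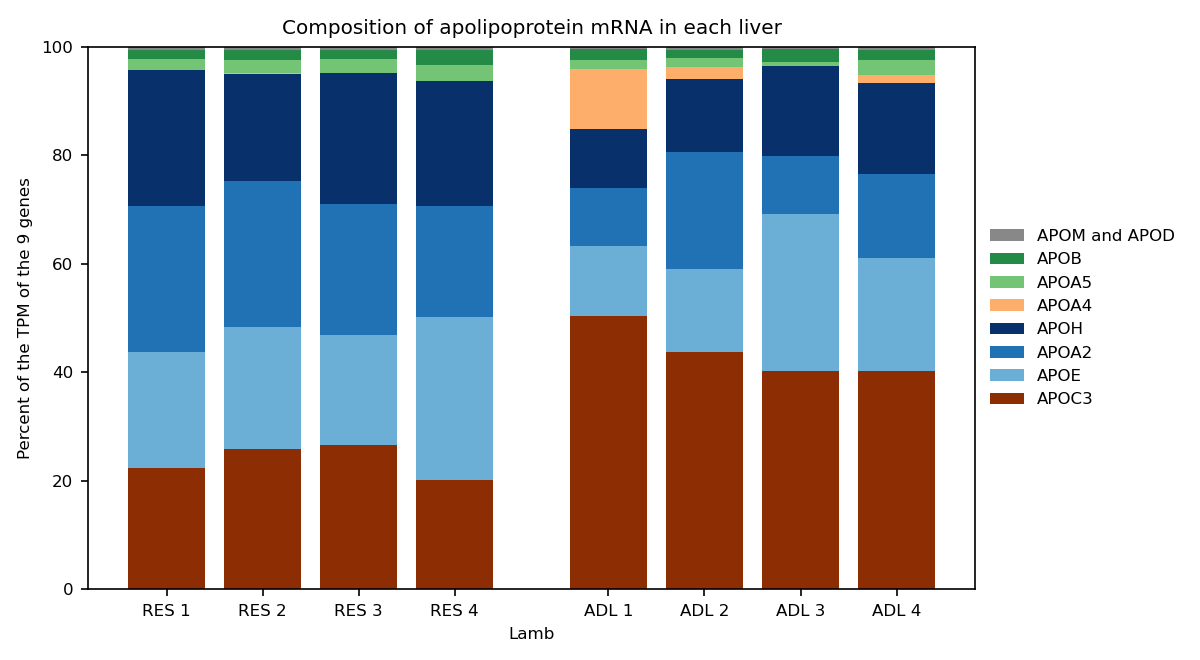
Stacked bars give the percent of the TPM of the 9 genes held by each gene in each lamb, RES at the left and ADL at the right. APOC3 at the base holds 20.2 to 26.6% in RES and 40.2 to 50.3% in ADL, and APOA4 is visible in ADL 1, ADL 2 and ADL 4.

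The 9 genes were compared between groups with limma on log2(TPM + 0.5), fitted to all 13812 genes with a mean of at least 1 TPM, and all 9 passed that filter. None of the 9 passed an adjusted p of 0.05 in the 8 lambs, where 0.00724% of all genes did (1 gene, annotated as cytochrome P450 26A1). At an unadjusted p below 0.05 there were 4 of the 9 (APOA4, APOC3, APOD and APOH), against 9.7% of all genes. Log2 fold changes of RES over ADL were above 0 in 6 genes and below 0 in 3, with a median of 0.09, beside a median of -0.04 over all genes. Without ADL 3, 2 of the 9 were called, APOA4 and APOD, both lower in RES, where 10% of all genes were called, 7.59% lower and 2.42% higher. After median-of-ratios rescaling without ADL 3 only APOA4 was called, lower in RES, against 8.4% of all genes (3.96% lower). The authors' deposited table, from DESeq2 on all 8 lambs, called APOD (adjusted p = 0.00449) and APOH (adjusted p = 0.039), where 2.3% of genes with an adjusted p were called, 1.05% lower and 1.25% higher in RES. With sample quality weights, which give lambs that fit poorly less influence, limma called 3 of the 9 in the 8 lambs, APOA4 and APOD lower and APOH higher in RES. That fit called 14.3% of all genes, 8.98% lower and 5.28% higher. These fits use the same lambs and are not independent of each other. By TPM alone, 1 of the 9 genes (APOD) separated the groups of 4, as did 4.48% of all genes. Without ADL 3, APOA4, APOC3 and APOD did, all lower in RES, as did 27.8% of all genes (21.7% lower in RES).

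**Figure D3:**
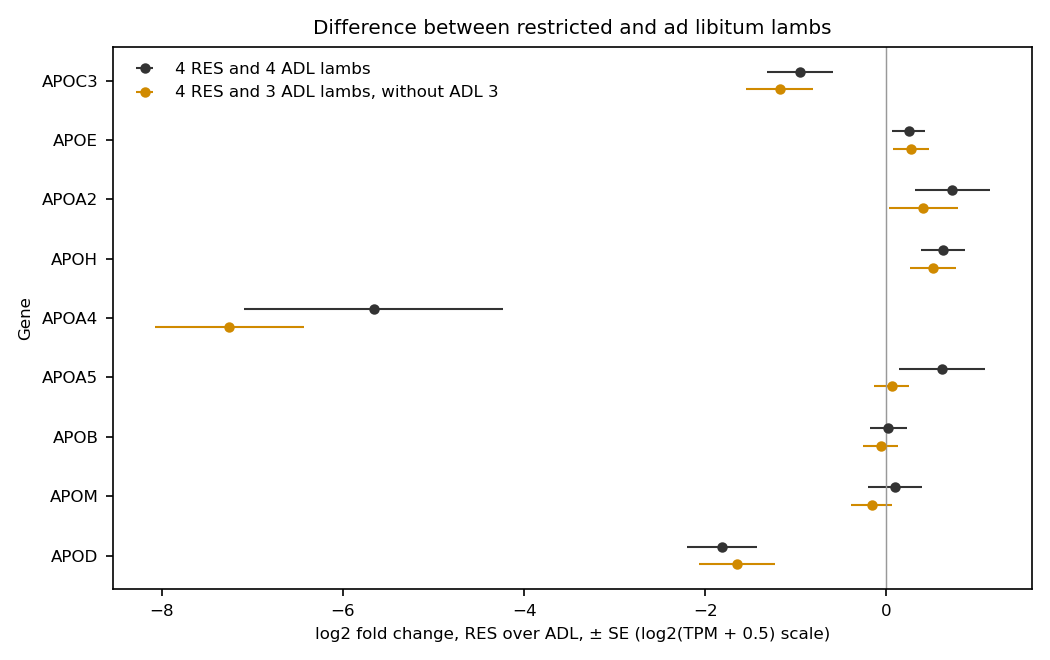
Log2 fold change of RES over ADL with its standard error for each gene, with all 8 lambs in black and without ADL 3 in ochre. APOA4 lies at -5.66 and -7.26 and APOD at -1.82 and -1.65, while APOB lies at 0.02 and -0.07.

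APOA4, a component of triglyceride-rich particles and high density lipoprotein that in humans is made mainly by the intestine, was the most variable gene of the liver in these lambs. Its SD of log2(TPM + 0.5) over the 8 lambs, 3.85, ranked 1st among the 13812 genes tested. It had 3.14, 16.6, 5.52 and 3.28 TPM in RES 1 to RES 4, from 40 to 198 reads. It had 3556, 704, 10.8 and 328 TPM in ADL 1 to ADL 4, from 40718, 8984, 147 and 4055 reads. The groups overlapped through ADL 3, which lay between RES 2 and RES 3, and the other 3 ADL lambs were all above every RES lamb.

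The log2 fold change of APOA4 was -5.66 in the 8 lambs (SE 1.43, limma adjusted p = 0.282), the lowest of all genes tested, yet its p ranked 139th. Without ADL 3 APOA4 fell by 7.26 on the log2 scale (SE 0.82, limma adjusted p = 0.00377). The authors' deposited table gives 2 very different sizes for the same gene. Its maximum likelihood log2 fold change was -7.11, and its shrunken value was -0.86 (adjusted p = 0.0995). Neither the equally weighted limma fit nor the authors' deposited table called APOA4 in the 8 lambs. With sample quality weights limma did call it (log2 fold change -6.36, adjusted p = 0.00407).

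Because APOA4 is a marker of the gut in other mammals, enterocyte markers were read beside it. Of 12 listed, 11 were found and 6 stayed below 1 TPM in every lamb. Sucrase-isomaltase (SI) was at 0 in all 8 lambs. FABP2, the intestinal fatty acid binding protein, was at 0 to 0.15 TPM in RES and 0 to 0.63 TPM in ADL, and CDX2, a transcription factor of gut epithelium, at 0 in RES and 0 to 0.37 TPM in ADL. RBP2, the retinol binding protein of enterocytes, was at 0 in RES and reached 2.46 TPM in ADL 1. SLC5A1, the sodium-glucose transporter, was the 1 enterocyte marker with every RES lamb below every ADL lamb, as were 1.68% of all genes. It was at 2.56 to 5.67 TPM in RES and 6.19 to 6.79 TPM in ADL. Other markers went the opposite way on average, with overlap. ANPEP averaged 24.7 TPM in RES and 8.45 TPM in ADL, and VIL1 2.46 and 1.43 TPM. MEP1A averaged 0.159 and 0.055 TPM, and LCT 0.0551 and 0.0317 TPM. The part of enterocytes in the level of APOA4 was not tested.

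The genes whose profile over the 8 lambs was nearest to that of APOA4 were MFSD2A, a lysophospholipid transporter, GNMT, glycine N-methyltransferase, ELOVL7, a fatty acid elongase, and PLIN2, a lipid droplet coat protein. Nearness was the root mean square difference of log2 deviations from each gene's mean. It was 1.56 for MFSD2A, 1.78 for GNMT, 1.81 for ELOVL7 and 1.93 for PLIN2, so even the nearest profile was far from it in size. MFSD2A had 1.89 to 5.61 TPM in RES, 0.835 TPM in ADL 3 and 59.5 to 115 TPM in the other ADL lambs. PLIN2 had 13.0 to 26.1 TPM in RES, 13.5 TPM in ADL 3 and 193 to 303 TPM in the other ADL lambs. All 4 genes placed ADL 3 among or near the RES lambs, as APOA4 did. This follows from their choice by profile and is no separate result.

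APOA4 lies on chromosome 15 at 26932026 to 26934942, on the minus strand, with 3 exons. Positions are those the authors deposited, and the sources used here name no genome build for them. The cluster around it runs over 60.8 kb and holds 6 listed genes in the order APOA5, LOC101112086, APOA4, APOC3, LOC101112345 and LOC101117785. APOA5 is at 26896452 to 26899395 and APOC3 at 26940125 to 26942730, 5183 bases beyond the end of APOA4 and on the opposite strand. The nearest listed genes on either side of APOA4, APOA5 and APOC3 do not overlap them.

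The gene between APOA5 and APOA4, LOC101112086, is annotated as a pseudogene of splicing factor 3B subunit 4 and lies 22611 bases from APOA4 on the same strand. It was at 0.0897 to 0.371 TPM in RES, 0.0839 TPM in ADL 3 and 5.88, 0.894 and 2.49 TPM in ADL 1, ADL 2 and ADL 4. These rest on 1 to 4 reads in RES, 1 read in ADL 3 and 59, 10 and 27 reads in ADL 1, ADL 2 and ADL 4. It passed the filter of a mean of at least 1 TPM only through ADL lambs, which favours a call of lower in RES in advance. Without ADL 3 it was so called, with a fall of 2.10 on the log2 scale (SE 0.46, limma adjusted p = 0.0319). That call is therefore no support for a difference. It was not called in the 8 lambs (adjusted p = 0.484). It was above every RES lamb in ADL 1, ADL 2 and ADL 4, as were APOA4, APOC3 and 21.7% of all genes, whereas APOA5, LOC101112345 and LOC101117785 overlapped without ADL 3. It was named as a neighbour of APOA4 on the chromosome, not for its values.

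APOC3, on the other side of APOA4, had 5722, 7177, 6567 and 3058 TPM in RES 1 to RES 4. It had 16088, 13360, 6503 and 8319 TPM in ADL 1 to ADL 4. ADL 3 lay within the RES range, and the other 3 ADL lambs were above it. Its log2 fold change of -0.95 (SE 0.36) missed the limma call (adjusted p = 0.453) in the 8 lambs and -1.18 (SE 0.37, adjusted p = 0.0781) without ADL 3. After median-of-ratios rescaling, which corrects for the space that a few abundant transcripts take, APOC3 no longer overlapped. It was at 3282 to 7408 in RES and 7638 to 13522 in ADL, where 6.17% of all genes separated the groups and 2.6% did so with RES below ADL. The limma call was missed there too (log2 fold change -0.90, adjusted p = 0.341).

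APOA5, which in humans and mice speeds the clearing of triglyceride by lipoprotein lipase, had 540, 700, 645 and 424 TPM in RES 1 to RES 4. It had 542, 514, 117 and 581 TPM in ADL 1 to ADL 4. ADL 3 was far below the other 7 lambs, and these overlapped between groups. APOA5 had a log2 fold change of 0.61 (SE 0.47, limma adjusted p = 0.719) in the 8 lambs and 0.06 (SE 0.19, adjusted p = 0.872) without ADL 3. The nearest profiles to that of APOA5 were those of KMO, a kynurenine enzyme (root mean square difference 0.21), DND1 (0.30), LIPC, the hepatic lipase (0.31), and MAFK (0.32). LIPC had 16.4 to 43.4 TPM in RES and 9.58 to 34.0 TPM in ADL. Its lowest value was in ADL 3, which follows from its choice by profile.

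The gene annotated as apolipoprotein A-I, LOC101117785, had 2823, 3593, 2772 and 1184 TPM in RES 1 to RES 4 and 4086, 3419, 1179 and 1722 TPM in ADL 1 to ADL 4. It had a log2 fold change of 0.06 (SE 0.45, limma adjusted p = 0.98), which turned to -0.27 without ADL 3. The lowest values were in RES 4 and ADL 3, 1 lamb of each group. A shorter neighbour annotated as apolipoprotein A-I-like, LOC101112345, followed it closely, at 31.1 to 34.1% of its TPM in RES and 31.5 to 34.5% in ADL. Whether these genes share reads was not tested, so the split of apolipoprotein A-I signal between them is uncertain.

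Ratios within a lamb do not depend on the scaling of its library, except through the pseudocount of 0.5 TPM added to each gene. That pseudocount weighs on low values, such as those of APOD and of APOA4 in RES lambs. In all, 4 ratios were tested with exact permutations, two-sided, over 70 assignments, with p-values adjusted over the 4. The log2 ratio of APOA1 (LOC101117785) to APOC3 was -1.02, -0.998, -1.24 and -1.37 in RES 1 to RES 4. It was -1.98, -1.97, -2.46 and -2.27 in ADL 1 to ADL 4. Every RES lamb was above every ADL lamb, ADL 3 included, with a difference of 1.01 (exact permutation p = 0.0286, the smallest the design allows, adjusted p = 0.0571, n = 4 each). APOA5 to APOC3 was -3.40 to -2.85 in RES and -5.79 to -3.84 in ADL, a difference of 1.57 with the same p-values and no overlap. APOA4 to APOC3 was -10.6 to -8.72 in RES and -9.17 to -2.18 in ADL, with a difference of -4.71 (exact permutation p = 0.0571, adjusted p = 0.0762, n = 4 each). The groups overlapped through ADL 3. With all 8 lambs no adjusted p over the 4 ratios fell below 0.05. Of all tested genes, 30.1% had a ratio to APOC3 that was higher in RES without overlap. The smallest p for APOA1 and APOA5 over APOC3 is therefore not particular to these 2 genes.

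Most of the other members were also higher against APOC3 in RES. The log2 ratio to APOC3 was higher in RES without overlap in 6 of the 8 other members, namely APOA2, APOA5, APOB, APOE, APOH and APOM. This count was made after the values were seen, and 30.1% of all tested genes had a ratio to APOC3 that separated the groups, all in that direction. APOA2 to APOC3 was -0.14 to 0.28 in RES and -2.22 to -1.02 in ADL. APOH to APOC3 was -0.38 to 0.19 in RES and -2.23 to -1.27 in ADL. APOD, like APOA4, was lower against APOC3 in RES on average, at -12.8 to -10.1 in RES and -12.2 to -9.67 in ADL, a difference of -0.86 with overlap. Among the 6 that separated, APOE to APOC3 was nearest to overlap, at -0.39 to 0.57 in RES and -1.96 to -0.47 in ADL. Of the 28 pairs of members without APOC3, 6 separated the groups, and of all pairs of tested genes 6.39% did. All 6 held either APOA4 (with APOA2, APOA5, APOH and APOM) or APOD (with APOB and APOE). The ratio to APOA4 separated the groups in 19.5% of all tested genes, and the ratio to APOD in 46.0%. The 6 pairs are therefore no trait of the members as a set.

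**Figure D4:**
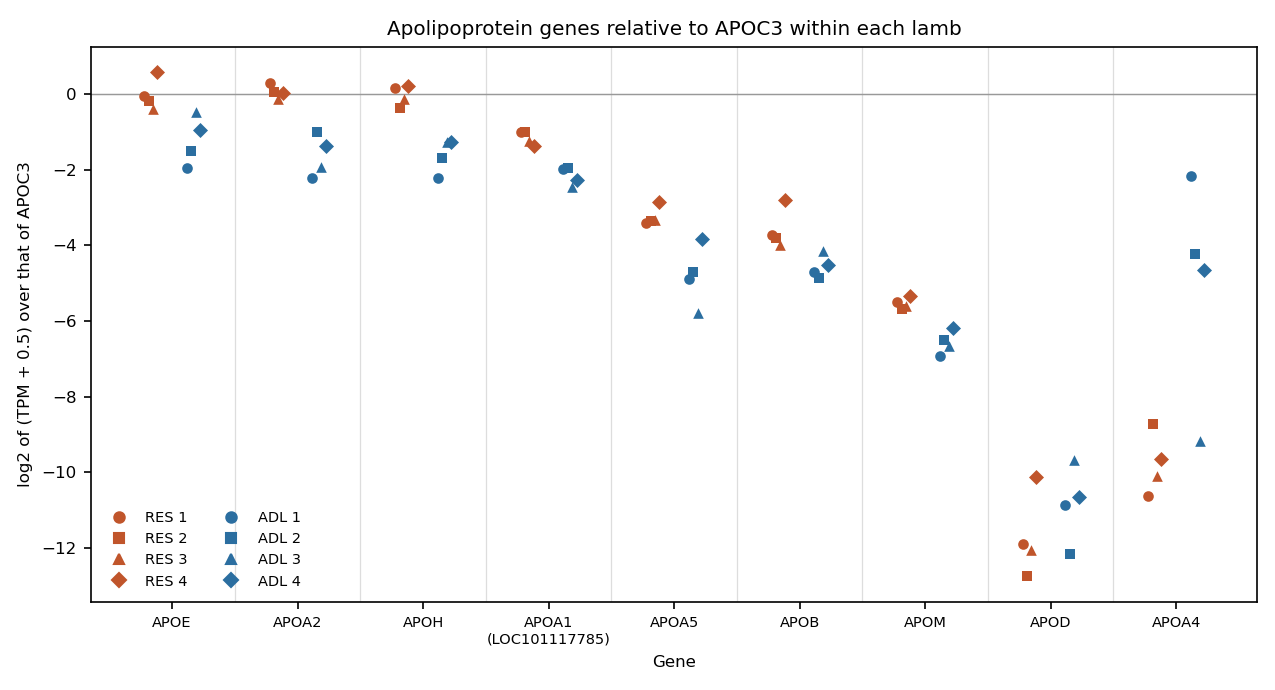
Log2 ratio of each gene to APOC3 within each lamb, with a pseudocount of 0.5 TPM, RES in orange and ADL in blue. APOE, APOA2, APOH, APOA1 (LOC101117785), APOA5, APOB and APOM are higher in every RES lamb than in any ADL lamb, while APOD and APOA4 overlap.

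Among the structural proteins of high density lipoprotein, APOA2, on chromosome 1 at 110622918 to 110624161, had 6933, 7435, 5945 and 3090 TPM in RES 1 to RES 4. It had 3442, 6596, 1717 and 3216 TPM in ADL 1 to ADL 4. RES 1, RES 2 and ADL 2 were high, and the groups overlapped (log2 fold change 0.73, SE 0.42, limma adjusted p = 0.629). Without ADL 3 the log2 fold change was 0.41 (SE 0.38, adjusted p = 0.515). APOM, which carries sphingosine-1-phosphate on these particles, had 126, 139, 135 and 75.1 TPM in RES 1 to RES 4 and 130, 146, 63.3 and 113 TPM in ADL 1 to ADL 4. Its log2 fold change was 0.09 (SE 0.29, adjusted p = 0.941), and -0.16 (SE 0.23) without ADL 3. APOM, on chromosome 20 at 26691880 to 26696846, overlaps BAG6 on the other strand by 1327 bases, and reads of the overlap cannot be told apart if strand was not used in counting.

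APOB, the large structural protein of very low density lipoprotein, lies on chromosome 3 at 28578875 to 28618780 with 29 exons. It had 433, 509, 411 and 434 TPM in RES 1 to RES 4 and 613, 455, 367 and 363 TPM in ADL 1 to ADL 4. The groups overlapped fully (446.8 ± 43.1 TPM in RES and 449 ± 117 TPM in ADL), with a log2 fold change of 0.02 (SE 0.20, limma adjusted p = 0.984). With 41777 to 65429 reads per lamb, counting error was small beside the spread between lambs. The log2 ratio of APOA1 (LOC101117785) to APOB was 2.43 ± 0.658 in RES lambs and 2.39 ± 0.551 in ADL lambs, a difference with an exact permutation p of 0.943 (n = 4 each). It was 1.45 in RES 4, 1.68 in ADL 3, 2.25 in ADL 4 and 2.70 to 2.91 in the other 5 lambs. These 3 low lambs were the 3 with the highest acute phase sums, in both feeding groups; the part of the acute phase in this ratio was not tested.

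**Figure D5:**
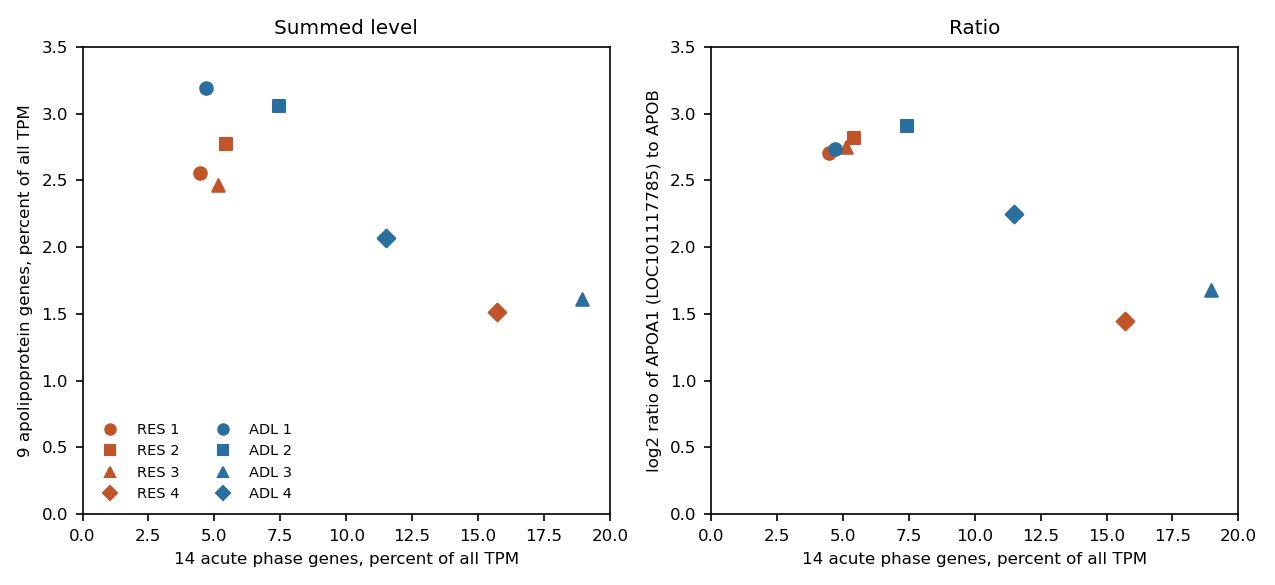
Each point is 1 lamb, with the summed level of 14 acute phase genes as percent of all TPM on the x axes. The left panel gives the percent of TPM held by the 9 apolipoprotein genes and the right panel the log2 ratio of APOA1 (LOC101117785) to APOB, and RES 4, ADL 3 and ADL 4 lie lowest in both. In the left panel both axes are parts of the same TPM total and are tied to each other.

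APOE, the ligand by which remnants bind the low density lipoprotein receptor and its relatives, was the steadiest of the 9 genes. It had 5451, 6256, 5009 and 4545 TPM in RES 1 to RES 4 and 4141, 4675, 4682 and 4328 TPM in ADL 1 to ADL 4. RES 4 lay within the ADL range and the other RES lambs above it. APOE had a log2 fold change of 0.25 (SE 0.18, limma adjusted p = 0.711), and 0.27 (SE 0.20, adjusted p = 0.389) without ADL 3. Macrophages also make APOE. The 11 macrophage markers found summed to 1508 to 1762 TPM in RES and 1275 to 1566 TPM in ADL; their part in APOE was not tested.

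APOH, on chromosome 11 at 61429202 to 61441684, had 6386, 5513, 5967 and 3500 TPM in RES 1 to RES 4. It had 3441, 4090, 2679 and 3452 TPM in ADL 1 to ADL 4. All RES lambs but RES 4 lay above the ADL range, and RES 4 lay below ADL 2. APOH had a log2 fold change of 0.62 (SE 0.24, limma adjusted p = 0.457), and 0.51 (SE 0.25, adjusted p = 0.216) without ADL 3. The authors' deposited table gave a shrunken log2 fold change of 0.64 for APOH and called it higher in RES. With sample quality weights limma also called it (adjusted p = 0.0478), in a fit that called 14.3% of all genes.

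APOD, a lipocalin that binds small lipids and is known from peripheral nerve and fibroblasts rather than hepatocytes, was low. It had 1.01, 0.539, 1.05 and 2.24 TPM in RES 1 to RES 4 and 8.15, 2.40, 7.46 and 4.62 TPM in ADL 1 to ADL 4. It was the only one of the 9 genes in which every RES lamb was below every ADL lamb, ADL 3 included, as were 1.68% of all genes. The gap was narrow. RES 4 had 39 reads (95% exact Poisson interval 1.59 to 3.06 TPM) and ADL 2 had 38 reads (1.70 to 3.29 TPM), counting error only. After rescaling, RES 4 (2.40) and ADL 2 (2.38) changed places.

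The log2 fold change of APOD was -1.82 (SE 0.39, limma adjusted p = 0.272) in the 8 lambs. APOD fell by 1.65 on the log2 scale without ADL 3 (SE 0.42, adjusted p = 0.046), a call that was lost after rescaling (adjusted p = 0.0599). With sample quality weights and all 8 lambs it was called (log2 fold change -1.73, adjusted p = 0.00987). Its shrunken value in the authors' deposited table was -1.38. The gene is on chromosome 1 at 190152024 to 190165590 with 5 exons.

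Markers of cells that could carry APOD were read beside it. The 10 fibroblast and stellate cell markers summed to 292 to 453 TPM in RES and 417 to 565 TPM in ADL. The 8 cholangiocyte markers summed to 121, 90.6, 114 and 194 TPM in RES 1 to RES 4 and 163, 87.0, 226 and 169 TPM in ADL 1 to ADL 4. The 6 glial and nerve markers summed to 51.0 to 76.4 TPM in RES and 29.2 to 71.8 TPM in ADL, and SOX10 and CDH19 stayed below 1 TPM in every lamb. The fibroblast and cholangiocyte sums were higher on average in ADL, and their part in the level of APOD was not tested. The nearest profiles to that of APOD were those of LTF, lactotransferrin (root mean square difference 0.40), SLC28A1, a nucleoside transporter (0.46), PIGR, the polymeric immunoglobulin receptor (0.49), and MROH6 (0.50). LTF was at 0.118 to 0.50 TPM in RES and 0.444 to 3.65 TPM in ADL, low like APOD itself.

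Outside the 9 genes, 19 of 31 listed apolipoprotein-named and lipid carrier genes were found and 15 were tested, with none called in the 8 lambs and a median log2 fold change of 0.001. APOC4, which lies 10836 bases beyond APOE on chromosome 14 at 51615933 to 51619840, had 1521, 1367, 1188 and 836 TPM in RES 1 to RES 4. It had 596, 744, 498 and 554 TPM in ADL 1 to ADL 4. Every RES lamb was above every ADL lamb, as were 2.8% of all genes. APOC4 had a log2 fold change of 1.02 (SE 0.23, limma adjusted p = 0.272) in the 8 lambs, and without ADL 3 APOC4 rose by 0.94 (SE 0.23, adjusted p = 0.0417). The authors' deposited table called APOC4 with an adjusted p of 0.000432. APOC2, the cofactor of lipoprotein lipase, had 1458 ± 521 TPM in RES and 1680 ± 688 TPM in ADL (log2 fold change -0.19, SE 0.31, adjusted p = 0.873). A1CF, a partner in the editing of APOB mRNA, fell by 0.90 without ADL 3 (SE 0.13, adjusted p = 0.0099), while the editing enzyme gene APOBEC1 was at 0 to 0.024 TPM in RES and 0 to 0.27 TPM in ADL.

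Among 34 tested regulators of apolipoprotein genes, none was called in the 8 lambs (median log2 fold change -0.04, equal to that of all genes). Without ADL 3, 5 were called lower and 1 higher, where 7.59% of all genes were called lower and 2.42% higher. CREB3L3, a membrane-bound transcription factor that in mice drives APOA4, had 168, 239, 115 and 101 TPM in RES 1 to RES 4. It had 605, 579, 105 and 428 TPM in ADL 1 to ADL 4. ADL 1, ADL 2 and ADL 4 were above every RES lamb, as in 21.7% of all genes, and a link between CREB3L3 and APOA4 was not tested. Without ADL 3 CREB3L3 fell by 1.85 (SE 0.30, limma adjusted p = 0.0135), HNF4G, a nuclear receptor, by 1.09 (SE 0.17) and ESRRA, an orphan nuclear receptor, by 0.98 (SE 0.15).

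Genes of lipoprotein assembly and secretion were also uncalled in the 8 lambs (0 of 19, median 0.13), with TM6SF2 nearest at a log2 fold change of 0.56 (adjusted p = 0.514). Without ADL 3, 7.59% of all genes were called lower and 2.42% higher, and of these 19 genes 2 were called lower. These were SEC24A, of the coat of vesicles leaving the endoplasmic reticulum (-0.90, SE 0.19), and SAR1B, the GTPase that builds this coat (-0.77, SE 0.17). Of 18 genes of high density lipoprotein biogenesis and remodelling none was called in the 8 lambs (median 0.39). Without ADL 3, ANGPTL4, an inhibitor of lipoprotein lipase, fell by 2.27 (SE 0.42), and SCARB1, the receptor for high density lipoprotein, rose by 0.60 (SE 0.14, adjusted p = 0.035). SCARB1 had 24.2 to 32.5 TPM in RES, 28.7 TPM in ADL 3 and 16.1 to 18.9 TPM in the other ADL lambs. Of 15 lipoprotein receptor genes none was called in the 8 lambs (median 0.06), and without ADL 3 the sorting receptor SORL1 rose by 1.26 (SE 0.12, adjusted p = 0.00224). SORL1 had 18.3 to 21.6 TPM in RES, 18.0 TPM in ADL 3 and 7.26 to 8.73 TPM in the other ADL lambs.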

How the data were processed

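Libraries of poly(A) RNA from 8 lamb livers were read in pairs by Illumina sequencing, per the labels' protocols. The submitters' processing notes name bcl2fastq 1.8.4 and DESeq2 1.12.4 among the authors' tools. No aligner, counter, strand setting or genome build is named in the sources used here. The deposited TPM values were made by the authors from reads and the gene lengths in the same table. Per the file headers, the authors' deposited DESeq2 results hold a shrunken log2 fold change, its standard error, a maximum likelihood log2 value, a mean normalised signal and, for each gene, a raw and an adjusted p-value.

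Multiplied by gene length, each TPM came out as a whole multiple of 1 step per lamb (100% within 0.001), which gave reads per gene. limma 3.58.1 (R 4.3.3, trended eBayes) was run over genes with a mean of at least 1 TPM, on log2(TPM + 0.5), RES over ADL, two-sided, with Benjamini-Hochberg adjustment over all genes tested. Folds on this scale understate changes of low genes. Ratios were tested by exact permutation. Intervals on reads cover counting error only. The fit was tested on simulated data.

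The 10 symbols and all gene lists were chosen with earlier results of these data known. List names were matched by the table's symbol, by Entrez identifier through RefSeq or by the table's alias (192 of 213 names; 184, 2 and 6). Named genes are the members, the called list genes with the smallest p (up to 3 per list and comparison), the 4 nearest profiles of the 3 members with the largest SD, and chromosomal neighbours. Within that rule only those that bear on a result are printed. Alternatives were other pseudocounts and filters, rescaling, voom on recovered reads, age, lamb number as a block, sample weights and leaving out each lamb. All libraries carry the same lane number in the labels, and no other batch is given. Some list and marker genes, and the summed level of the enterocyte markers, are not reported here.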

Additional observations from a re-analysis of the deposited data

Results flagged for a closer look

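Among 28 groups of 4 lambs checked, 3 values lay far from the rest of their group, where chance alone flags about 1 in 20 groups. APOA5 in ADL 3 was 116.8 TPM, against 514 to 581 TPM in the other ADL lambs. The log2 ratio of APOA5 to APOC3 in RES 4 was -2.85, against -3.40 to -3.35 in the other RES lambs. The log2 ratio of APOA1 (LOC101117785) to APOB in RES 4 was 1.45, against 2.70 to 2.82 in the other RES lambs. RES 4 and ADL 3 also had the highest acute phase sums of their groups, 15.7% and 19.0% of all TPM. The part of the acute phase in these 3 values was not tested.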

How the results depend on the processing

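With all 8 lambs, 1 of all genes was called. There were 0 without a filter on low values, after median-of-ratios rescaling and with lamb number as a replicate block, 1969 with sample quality weights, 1161 without ADL 3 after rescaling, and 0 to 1382 with 1 lamb left out, the highest without ADL 3 (49 without RES 4). Of the 9 apolipoprotein genes 3 were called with sample quality weights, 1 without ADL 3 after rescaling, and 0 to 2 with 1 lamb left out, the highest again without ADL 3. APOA4 ranged from -7.26 to -4.49 and APOD from -2.19 to -1.52 over the alternatives (APOD is below a minimum of 5 TPM and has none there). Of 161 alternative values of the 9 genes, 148 kept direction and call, 6 gained a call and 7 changed sign. Signs changed only in APOB (-0.0875 with age as a covariate, -0.071 to 0.18 with a lamb left out) and APOM (-0.062 with age, -0.015 without ADL 3 after rescaling, -0.16 to 0.30 with a lamb left out), neither of which was called. With a lamb left out the log2 ratio differences ran from -6.08 to -3.75 (APOA4 to APOC3), 1.24 to 1.89 (APOA5 to APOC3), 0.91 to 1.08 (APOA1 to APOC3) and -0.20 to 0.37 (APOA1 to APOB). Without ADL 3 the first 3 passed (exact permutation, adjusted p = 0.0381 each), all at the smallest p the test allows there. The 3 share APOC3 and are not independent, and APOA4 to APOC3 had overlapped only through ADL 3, the lamb left out. Over the 8 fits with a lamb left out the summed share difference ran from -0.445 to 0.117 percentage points. Lambs share only a number (same-number correlations across genes -0.044 to 0.159), and the block changed no apolipoprotein call. The causes of these changes were not tested. Depth limits APOD most, at 8 to 126 reads per lamb.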
